A study of Mus musculus with 3 samples.

Results

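A set of 10 genes was followed across the cells of mouse pancreatic islets: Fos, Fosb, Jun, Junb, Jund, Egr1, Ier2, Ier3, Atf3 and Klf6. They were taken as a named set of immediate early genes, 10 of the 15904 genes present in both deposited tables, and all 10 passed the filter on low values. Membership is by gene name.

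Immediate early genes are switched on within minutes of a stimulus, without new protein synthesis, because the factors that act on their promoters are already in the cell. Fos and Fosb encode proteins that pair with Jun, Junb or Jund to form the transcription factor AP-1, and Egr1 encodes a zinc finger transcription factor of the same early wave. Ier2 and Ier3 are small early response proteins, Atf3 is a stress-inducible factor of the ATF and CREB family that can pair with Jun proteins, and Klf6 is a Krüppel-like zinc finger factor. Enzymatic dissociation of tissue is a known stimulus of these genes, and in islets glucose and calcium signals are others.

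Islets came from mice with the genotype Ngn3-CreERT:R26-CAG-TdTomato, in which Cre recombinase driven by Ngn3 (Neurog3, the endocrine progenitor factor) is activated by tamoxifen and turns on a red reporter from the Rosa26 locus. All 3 samples belong to 1 group, taken 10 days after tamoxifen. The series holds 6 mice, and replicates 2 and 3 each pooled 2 mice. The labels used here give no age or sex, and no undissociated, untreated or Cre-negative islets, so every level below was measured after collagenase digestion, a Histopaque gradient and TypLE dissociation, and the part of dissociation in these levels was not tested.

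Replicate 1, called library 1 here, was deposited as raw UMI counts (27474046 UMIs in 1146 barcodes). Replicates 2 and 3 share a joint table of natural-log values whose barcodes carry 4 suffixes; 3008 columns of the last suffix were exact copies of another and were dropped. No label ties a suffix to a replicate, so the remaining sets of 5894, 3008 and 4140 barcodes are called blocks 1, 2 and 3. They are given as values and never counted as replicates. Every test has n = 2 libraries, which here means the 2 tables: library 1 and the joint table of replicates 2 and 3. The table is a block in the fit, so limma p-values measure how class differences vary between the tables. That spread is pooled over the classes in the fit and drawn toward that of other genes. The spread between replicates 2 and 3 is not measured. Distinct blocks shared 4 to 6 barcodes with each other and 0 to 5 with library 1.

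After filters 853 barcodes remained from library 1, and 11072 from the joint table. Endocrine cells were defined by their hormone: Ins1 plus Ins2 at 3000 or more (beta), or Gcg (alpha), Sst (delta) or Ppy (PP) at 200 or more, per 10000 UMIs, with cells past several limits kept apart. Other cells were clustered and named from marker lists. A level is the mean over cells of UMIs per 10000 UMIs other than Ins1, Ins2, Gcg, Sst and Ppy, since insulin alone fills most of a beta cell's library: hormones took 64.9% of UMIs in beta cells of library 1 and 18.8% in delta cells. The markers of each named class summed to their highest level in that class. As classes were picked by hormone or named from these markers, this is no check of their identity. Delta cells also carried markers of other endocrine types: their own list without Sst summed to 82.1 in library 1 (48.9 in the joint table), the beta list to 262 (352) and the PP list, which includes the broadly endocrine Pyy, to 576 (535). The part of such overlap in the delta values was not tested.

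The promoters are shown for 4 members on which the results turn, as the 250 bases before the RefSeq transcript start in GRCm38.p6: Fos (chr12:85473640-85473889, plus strand), Fosb (chr7:19310046-19310295, minus strand), Jun (chr4:95052223-95052472, minus strand) and Atf3 (chr1:191183334-191183583, minus strand). Capitals mark the core of the cyclic AMP response element, TGACG or its reverse complement CGTCA, and in Jun the site TGACATCA, which is of the type bound by Jun and ATF dimers.
Fos: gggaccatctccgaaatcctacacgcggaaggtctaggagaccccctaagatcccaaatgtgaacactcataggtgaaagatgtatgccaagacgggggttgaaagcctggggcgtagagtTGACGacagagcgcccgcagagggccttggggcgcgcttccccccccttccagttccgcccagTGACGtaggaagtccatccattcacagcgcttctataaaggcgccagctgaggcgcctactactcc
Fosb: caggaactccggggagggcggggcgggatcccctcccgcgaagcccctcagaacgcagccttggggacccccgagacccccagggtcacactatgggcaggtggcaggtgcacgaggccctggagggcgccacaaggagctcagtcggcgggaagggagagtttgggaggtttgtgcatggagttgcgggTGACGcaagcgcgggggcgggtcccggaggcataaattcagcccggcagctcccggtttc
Jun: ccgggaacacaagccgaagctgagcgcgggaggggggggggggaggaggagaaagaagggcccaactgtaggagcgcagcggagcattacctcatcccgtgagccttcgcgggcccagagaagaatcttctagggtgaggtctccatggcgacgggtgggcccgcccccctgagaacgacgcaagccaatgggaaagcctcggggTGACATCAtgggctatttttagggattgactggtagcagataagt
Atf3: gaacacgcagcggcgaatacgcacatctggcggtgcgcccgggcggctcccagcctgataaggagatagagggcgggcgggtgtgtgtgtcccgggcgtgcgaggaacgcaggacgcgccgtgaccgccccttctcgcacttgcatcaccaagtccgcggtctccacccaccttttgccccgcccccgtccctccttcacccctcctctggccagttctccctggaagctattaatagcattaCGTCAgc
The table of promoters held 8 of the 10 members, all but Ier2 and Egr1. The core TGACG occurred on either strand in 4 of these 8 promoters (Fos, Fosb, Junb and Atf3), against 17.9% of 32536 promoters of the same length, with a pair of them in Fos. TGACATCA occurred in 2 of the 8 (Jun and Klf6), against 2.84% of all. The full element TGACGTCA, the AP-1 site TGACTCA and the serum response CArG box were in 0 of the 8, against 1.56%, 4.45% and 1.48% of all promoters, which says only that these letters are not in this window. The GC box GGGCGG, read on both strands, was in 6 of the 8, against 33.0%. In the gene annotation, Fos spans 3384 bases of chromosome 12 in 4 exons, while Jun, Junb, Jund and Ier2 have a single exon each. The windows of Jund and Atf3 do not adjoin the annotated gene starts. That of Jund ends at base 70697738, before a start at 70698949. That of Atf3 lies inside a minus-strand gene of 2 transcripts that begins at 191218039. Jun, Junb, Jund and Atf3 overlap another gene on the opposite strand (Junos, Prdx2, Gm11175 and Gm24748). The counting strand is not given in the sources used here, and whether reads of these genes entered the counts was not tested.

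Beta cells, the insulin cells that make up most of the islet, set the base for the other endocrine cells. Fos stood at 16.7 UMIs per 10000 in library 1 (468 beta cells) and at 13.8, 13.2 and 14.0 in blocks 1 to 3 (3148, 1594 and 2276 cells). Jun followed at 12.1 in library 1 and 10.5, 9.75 and 9.76 in the blocks, and its relatives Junb and Jund at 6.57 and 11.0 in library 1. Fosb was at 8.95 in library 1 and 8.37, 7.92 and 9.25 in the blocks. Egr1 was nearly level over the 4 sources, at 7.95, 7.85, 7.39 and 7.61. The other 4 members were lower: Ier2 at 4.20 in library 1 and 1.87 to 2.25 in the blocks, Atf3 at 0.59 against 0.16 to 0.20, Klf6 at 0.47 to 0.53, and Ier3 at 0.14 to 0.18. These levels count UMIs at the transcript's 3′ end, so no length correction was applied. Beta cells had the lowest level of the 4 endocrine types for 10 of 10 members in library 1. In the joint table this held for 9 of 10, and Ier3 was lowest there in alpha cells.

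**Figure D1:**
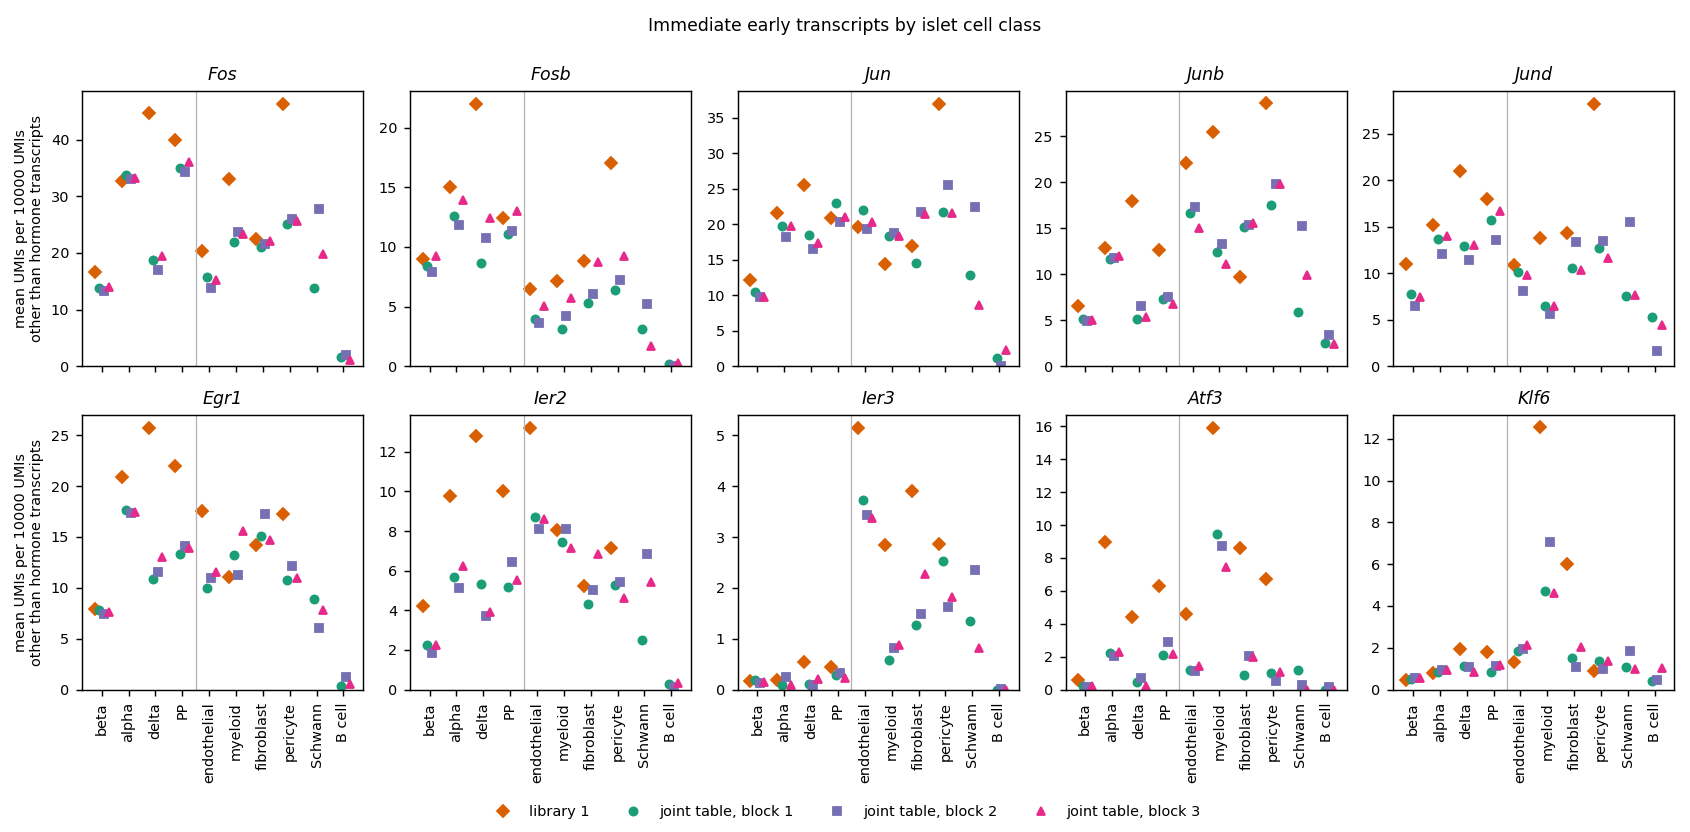
Mean level of each of the 10 genes (y axis, UMIs per 10000 UMIs other than hormone transcripts, a separate linear scale per gene) in each cell class (x axis), with diamonds for library 1 and circles, squares and triangles for blocks 1, 2 and 3 of the joint table; the grey line divides endocrine from other classes, and there are no error bars because each point is 1 library or block. The 3 blocks lie close together, Atf3 lies higher in library 1 in 8 of 8 shared classes, and Ier3 is near 0 in endocrine cells. B cells lie lowest in each block in the panels of Fos, Fosb, Jun, Junb, Jund, Egr1 and Ier2.

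Alpha cells, the glucagon cells, carried more early transcript than beta cells. In these cells 5 of the 10 members were higher (Fos, Jun, Egr1, Ier2 and Atf3), where 2.56% of the 11775 genes tested were higher and 3.14% lower, and the median difference of the members on the log2 scale was 0.99 against -0.02 for all genes. Fos stood at 32.7 in library 1 and 33.8, 33.1 and 33.3 in the blocks, against 16.7 or less in beta cells of any source. On the scale log2(level + 0.05), used for all differences here, it differed by 1.13 ± 0.28 (SE, n = 2 libraries), or 2.18-fold, with an adjusted p of 0.0473 in limma. Egr1 was at 20.9 in library 1 and 17.7, 17.3 and 17.5 in the blocks (2.45-fold, limma adjusted p = 0.0413). Jun was 1.85-fold and Ier2 2.46-fold higher (limma adjusted p = 0.0460 and 0.0444). These 4 calls lie close to the limit of 0.05, and each was lost in 3 to 5 of 18 alternatives, among them the fit without a filter on low values (limma adjusted p of 0.0731 to 0.0889). Without block 1 those of Fos, Jun and Ier2 were lost (0.0548, 0.0743 and 0.0908), and without block 3 that of Fos (0.0502). Fosb, Junb and Jund gave differences of 0.66, 1.09 and 0.66 that did not pass.

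Atf3 set alpha and PP cells apart most. It stood at 8.96 in alpha cells of library 1 and at 2.25, 2.07 and 2.28 in the blocks, against 0.59 or less in beta cells of any source. The difference was 3.54 ± 0.44 on the log2 scale, or 11.6-fold (limma adjusted p = 0.0013), with 3.82 from library 1 alone and 3.26 from the joint table, and it was called in 18 of 18 alternatives. With each cell thinned to 1000 non-hormone UMIs, 48.1% of 104 alpha cells and 4.71% of 467 beta cells of library 1 held an Atf3 UMI (exact 95% binomial intervals 38.2 to 58.1% and 2.98 to 7.05%, counting error only). In the joint table the thinned shares were 16.8% of 919 alpha and 1.65% of 6968 beta cells. Without thinning they were 45.9% and 9.42%, at median depths of 5003 and 6686 non-hormone UMIs, while 1.43% of 70 B cells, at a median of 3301, held one.

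PP cells make pancreatic polypeptide. Their contrast with beta cells comes from a fit that admits classes of 10 or more cells, since library 1 holds 18 PP cells, a limit chosen after the cell counts were seen. In them 5 members were higher than in beta cells (Fos, Jun, Egr1, Ier2 and Atf3), where 1.06% of 12125 genes were higher and 2.28% lower. Fos was at 39.9 in library 1 and 35.0, 34.3 and 36.1 in the blocks, 2.47-fold higher (limma adjusted p = 0.0169). Atf3 was at 6.27 in library 1 and 2.11, 2.89 and 2.14 in the blocks, 9.86-fold higher (limma adjusted p = 0.0011). Both were called in 17 of 17 alternatives. Egr1, at an adjusted p of 0.04999 in limma, lay at the limit and was lost in 6 of 17, among them the fits without block 2 (0.0619) and block 3 (0.0589). Without block 1 Jun and Ier2 were lost (0.0652 and 0.0543). Junb and Klf6 gave 0.73 and 1.37 on the log2 scale and did not pass.

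Delta cells, the somatostatin cells, behaved differently in the 2 tables. In library 1 they had the highest mean level of the 4 endocrine types for 9 of 10 members, all but Atf3. In the joint table they had it for Klf6 alone. The library 1 ranking rests on 25 delta and 18 PP cells. After thinning, a Fos UMI was held by 80.0% of these delta cells, against 85.6% of alpha and 88.9% of PP cells. Jund was at 72.0% against 76.0% and 83.3%, and Ier3 at 8.0% against 11.1% in PP cells. The thinned share was highest in delta cells for Fosb, Jun, Junb, Egr1, Ier2 and Klf6. Fos was at 44.7 in the 25 delta cells of library 1 but at 18.7, 16.9 and 19.5 in the 112, 58 and 60 delta cells of the blocks. Egr1 was at 25.8 against 10.8, 11.5 and 13.1, Junb at 17.9 against 5.09, 6.49 and 5.39, and Atf3 at 4.42 against 0.44, 0.695 and 0.229. Over both libraries 3 members were higher than in beta cells, where 2.75% of genes were higher and 2.24% lower: Jun (1.93-fold, limma adjusted p = 0.0371), Ier2 (2.51-fold, 0.0430) and Atf3 (3.84-fold, 0.0313). Fos was at 0.92 ± 0.28 on the log2 scale and did not pass (limma adjusted p = 0.113), with 1.42 from library 1 alone and 0.43 from the joint table. The 3 calls were lost in 3 to 7 of 17 alternatives, Ier2 and Jun also under edgeR (adjusted p = 0.0634 and 0.133), Atf3 without block 2 (0.0747) and Ier2 and Jun without block 1 (0.126 and 0.0685). Whether the delta difference itself differs between libraries was not tested, as each table gives 1 value.

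Cells outside the endocrine lineage were set, class by class, against the mean of beta, alpha and delta cells. Ier3, a regulator of cell survival, was at 0.545 or less in every endocrine class of every source and higher in all 3 classes tested. Fos, Jun and Egr1 did not pass in limma in any of the 3 contrasts (unadjusted p of 0.0675 or more), although in some alternatives they did: Fos in 4 for myeloid and 2 for endothelial cells, Jun in 2 for myeloid cells and 1 each for endothelial cells and fibroblasts, and Egr1 in 1 for fibroblasts. In endothelial cells Ier3 was at 5.15 in library 1 and 3.74, 3.43 and 3.38 in the blocks, 17.97-fold above endocrine cells (log2 4.17 ± 0.36, limma adjusted p = 1.2e-05). Ier3 was 6.18-fold higher in macrophage or myeloid cells (2.85 in library 1, 0.584 to 0.871 in the blocks) and 10.7-fold in fibroblasts (3.91 in library 1, 1.27 to 2.27 in the blocks). After thinning, 27.5% of 695 endothelial cells and 1.42% of 6968 beta cells of the joint table held an Ier3 UMI.

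Endothelial cells, the lining of the islet capillaries, had 3 members higher and 1 lower, where 19.9% and 25.3% of all genes were higher and lower. Besides Ier3, Junb was 2.13-fold higher (22.1 in library 1, 16.6, 17.3 and 15.1 in the blocks, limma adjusted p = 0.0286) and Ier2 1.90-fold (13.2, then 8.72, 8.09 and 8.61, limma adjusted p = 0.0157). In the same cells Junb was as abundant as Fos, with UMI ratios of Junb to Fos of 1.05 and 1.04 in the respective tables, against 0.39 and 0.36 in beta cells.

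Macrophage or myeloid cells had the most Atf3 and Klf6 of the classes found in both tables. In them 4 members were higher and 1 lower, against 14.6% and 39.6% of all genes. Atf3 was at 15.9 in library 1 (43 cells) and 9.46, 8.74 and 7.45 in the blocks (8.59-fold, limma adjusted p = 6.5e-05), and Klf6 at 12.5 and 4.70, 7.07 and 4.60 (9.10-fold, limma adjusted p = 1.7e-04). Junb was 1.98-fold higher (limma adjusted p = 0.0366). Thinned to 1000 UMIs, 51.6% of 225 myeloid cells of the joint table held an Atf3 UMI.

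Fibroblasts, the matrix-forming stromal cells, had Ier3, Atf3 (2.67-fold) and Klf6 (3.503-fold) higher, against 15.7% of all genes, with limma adjusted p of 0.0103 and 0.0072 for the latter pair. The libraries differed here: Atf3 was at 8.63 in library 1 and 0.885, 2.02 and 1.98 in the blocks, and Klf6 at 6.02 and 1.52, 1.09 and 2.05. The 32 fibroblasts of library 1, led by Dcn, C3 and Saa3, had a median of 25720 UMIs and the 96 of the joint table, most of them in a cluster led by Dcn and Col3a1, a median of 3013, and the part of this in the Atf3 and Klf6 values was not tested. Pericytes, contractile cells around capillaries, fell under the limit of 20 cells in library 1 (12 cells) and so were not part of this contrast; they had Fos at 46.3 there and at 25.1, 26.03 and 25.6 in the blocks.

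Fosb went the other way from these genes. It was lower in endothelial cells (log2 difference -1.21 ± 0.20, limma adjusted p = 0.0008), in macrophage or myeloid cells (-1.18 ± 0.20, 0.0008) and in fibroblasts (-0.69 ± 0.20, 0.0217; 24.1% of all genes were lower in that contrast). Endothelial cells held Fosb at 6.49 in library 1 and 3.91, 3.63 and 5.08 in the blocks, where the endocrine classes stood at 7.92 or more. Fibroblasts lay nearer to beta cells, at 8.78 in library 1 and 5.29, 6.04 and 8.72 in the blocks, against 8.95 and 8.37, 7.92 and 9.25. Pericytes, which were not tested, held it at 17.1 in library 1 (12 cells) and 6.37, 7.20 and 9.24 in the blocks. The ratio of Fosb to Fos UMIs was 0.51 (library 1) and 0.60 (joint table) in beta cells, and 0.19 and 0.17 in myeloid cells. The median of all genes lay at -0.52 in the myeloid contrast, so the Fosb difference there was smaller relative to other genes. Scaled to all UMIs, hormones included, the myeloid value was -0.53 and the fibroblast value -0.03, and neither passed (limma adjusted p = 0.0668 and 0.936); the fibroblast call was also lost with centred columns, edgeR, DESeq2, a 10% mitochondrial limit and the lower limit on class size.

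**Figure D2:**
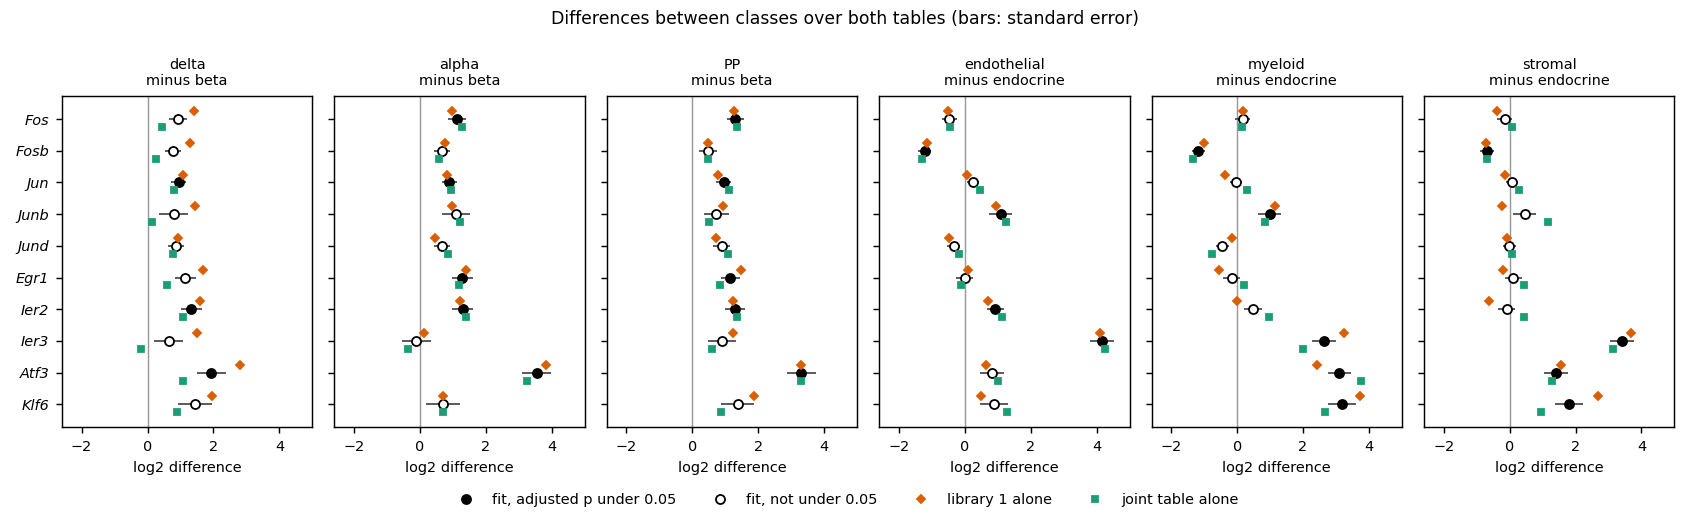
Log2 differences of the 10 genes (rows) in 6 contrasts (panels), on the scale log2(level + 0.05), with zero marked by the grey line; circles are the limma fit with standard errors as bars, filled where the adjusted p is under 0.05, and diamonds and squares are library 1 and the joint table alone. Atf3 lies at 3.54 and 3.30 in alpha and PP cells, Ier3 lies far to the right in the 3 non-endocrine panels, Fosb lies left of zero in them, and in the delta panel library 1 lies to the right of the joint table for 10 of 10 genes.

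B cells, the antibody-forming lymphocytes, were found in the joint table alone. These 70 cells had the lowest Fos of the named classes, at 1.53, 1.89 and 1.02 in the blocks, and the lowest Fosb, at 0.193, 0 and 0.291. Their beta cell markers, which B cells lack, summed to 70.4 per 10000, against 884 in beta cells. Jund was their most abundant member, at 5.29, 1.63 and 4.40, with 3.74 Jund UMIs per Fos UMI against 0.53 in beta cells of the same table. Schwann cells, the glia of islet nerves, had Fos at 13.8, 27.8 and 19.8 in 27, 10 and 14 cells.

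The libraries differed more in some members than in others. Over the 8 classes in both tables, Atf3 was higher in library 1 in 8 of 8, at 1.82 to 9.84 times the joint table's level with a median ratio of 3.83. Jund and Fosb were also higher in 8 of 8, at median ratios of 1.39 and 1.45. Fos, Junb, Ier2 and Ier3 were higher in 7 of 8, at 1.29, 1.44, 1.63 and 1.56, and Egr1 in 6 of 8, at 1.37. Jun and Klf6 were higher in 4 of 8, with median ratios of 1.03 and 1.34. Library 1 was processed with an earlier Cell Ranger and its beta cells were deeper (median 39330 UMIs against 19957), so library, depth and processing cannot be told apart.

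Within a class, cells ranged widely in their total early transcript. The 10 genes summed to a median of 61.0 per 10000 in beta cells of library 1, with the 10th and 90th percentiles of cells at 34.0 and 115, and in the joint table to 51.9 (28.8 to 86.4). Alpha cells had medians of 136 and 116. Delta cells had 162 (60.5 to 262) in library 1 but only 78.7 (17.8 to 154) in the other table, and B cells 9.9.

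**Figure D3:**
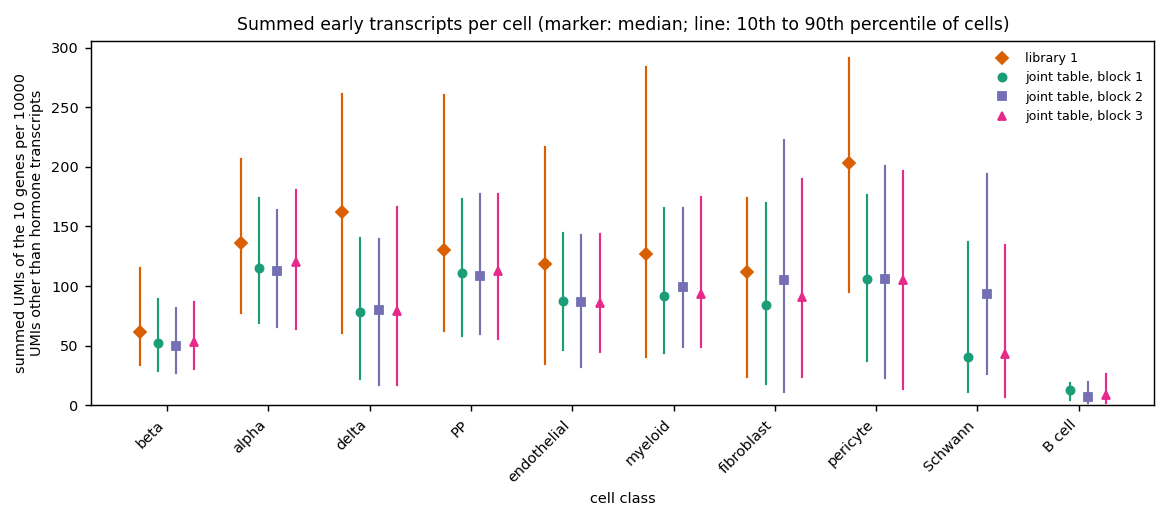
Sum of the 10 genes per cell (y axis, UMIs per 10000 UMIs other than hormone transcripts) by cell class (x axis), with the marker at the median and the line from the 10th to the 90th percentile of cells, for library 1 and blocks 1 to 3. Beta cells are the lowest endocrine type in every source, delta cells of library 1 lie well above those of the 3 blocks, and B cells lie lowest.

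The members divided by how they varied together from cell to cell. Correlations were taken over cells on log-normalized values, separately in library 1 and each block, and are a description: counts of a cell share its depth and mitochondrial share. In beta cells Fos and Jun had r of 0.294 to 0.512 over the 4 sources, Fos and Junb 0.288 to 0.507, and Fos and Egr1 0.270 to 0.563. In alpha cells the same pairs reached 0.468 to 0.641, 0.471 to 0.641 and 0.480 to 0.699. Ier3, Atf3 and Klf6, which are sparse in beta cells, had median r of 0.11 or less there with each other member. By lowest r over the 4 sources, the genes most like the mean of the 10 in beta cells, out of 9095, were Txnip (0.320), a glucose-induced thioredoxin inhibitor, Btg2 (0.302), Dusp1 (0.281), H3f3b (0.256), Ppp1r15a (0.230), Socs3 (0.228), C2cd4b (0.210) and Zfp36 (0.207).

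**Figure D4:**
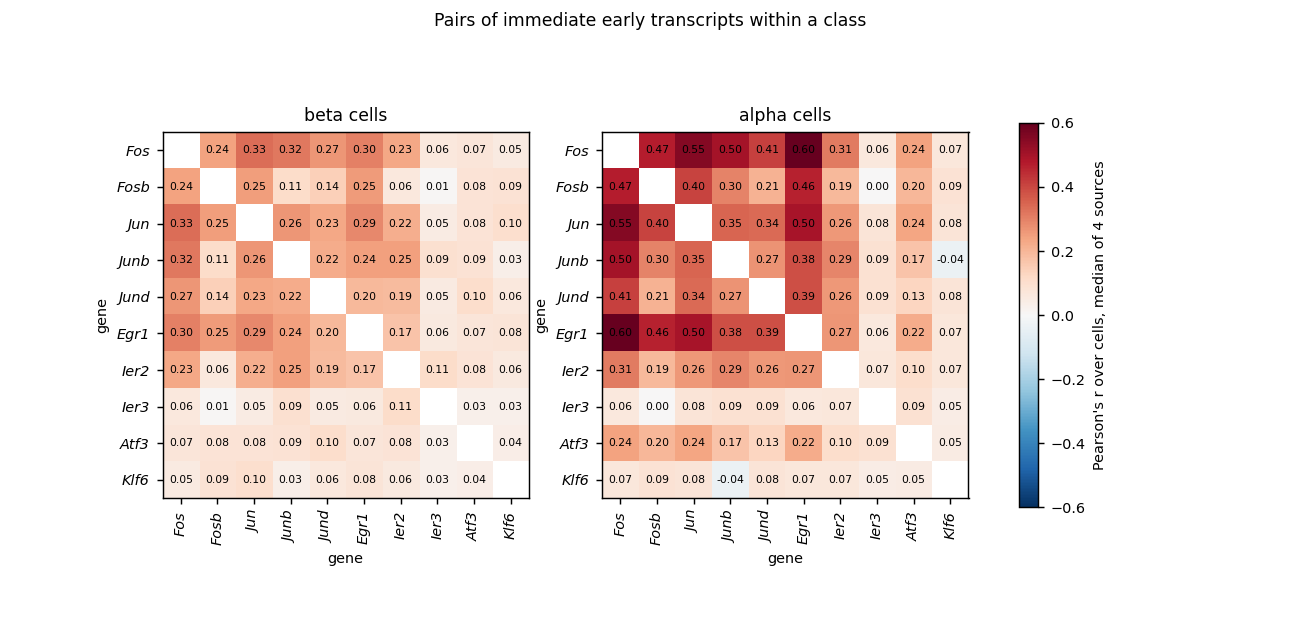
Pearson's r over cells for each pair of the 10 genes in beta cells (left) and alpha cells (right), shown as the median of library 1 and the 3 blocks, with colour and printed value giving r. Fos, Jun, Junb, Jund and Egr1 form the block of higher values, at 0.20 to 0.33 in beta cells and 0.27 to 0.60 in alpha cells, and the rows of Ier3 and Klf6 are near 0.

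Fosb parted from Fos along the mitochondrial share of a cell's UMIs, which is a sign of RNA quality in dissociated cells and also varies with cell state. Beta cells of each source were split into 3 equal groups by that share. In library 1 Fos was 19.3, 16.3 and 14.5 from the lowest to the highest group and Junb 8.79, 6.03 and 4.90, while Fosb was 8.44, 7.94 and 10.5. In block 1 Fos was 16.6, 13.2 and 11.5 and Fosb 7.09, 7.82 and 10.2. The highest group had 0.69 to 0.75 times the Fos, 0.52 to 0.59 times the Junb and 0.52 to 0.69 times the Ier2 of the lowest in all 4 sources, and 1.24 to 1.44 times the Fosb. In alpha cells Fosb was 1.45 to 1.78 times higher in the highest group and Fos 0.61 to 0.95 times. By depth, the deepest group of beta cells had 0.96 to 1.04 times the Fos and 0.78 to 0.92 times the Fosb of the shallowest. In alpha cells of library 1 the deepest group had 1.78 times the Fos, 2.63 times the Junb and 0.67 times the Fosb of the shallowest, while in the blocks Fos was at 0.90 to 1.03 times and Fosb at 0.66 to 1.10 times. The part of RNA quality or depth in these values was not tested.

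**Figure D5:**
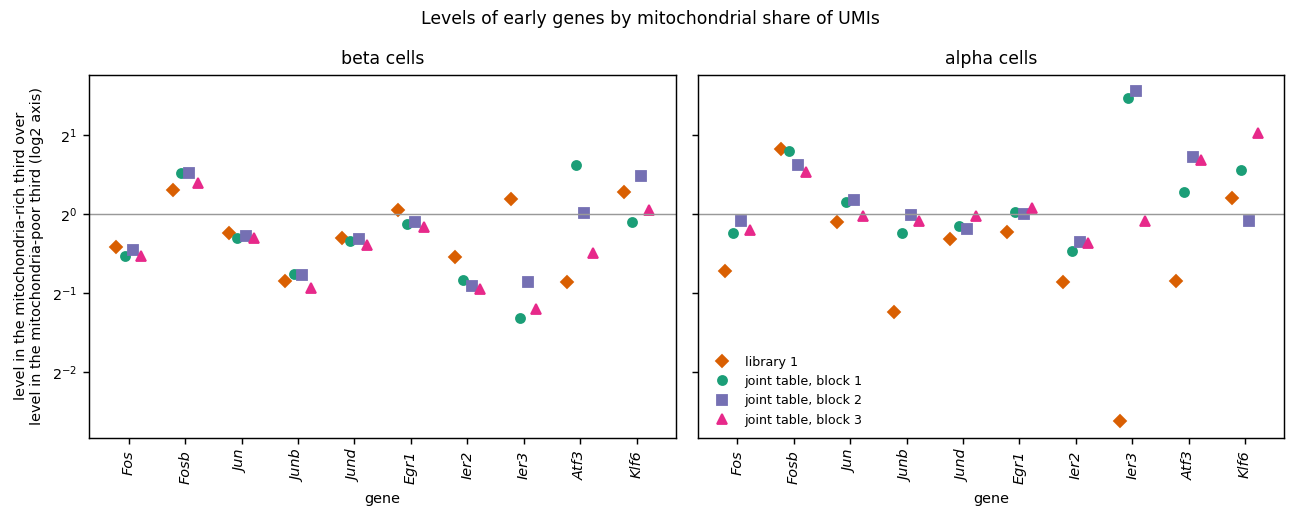
Level of each of the 10 genes in the cells with the highest mitochondrial share of UMIs divided by its level in those with the lowest (y axis, log2 scale; 3 equal groups of cells, the outer pair compared), for beta cells (left) and alpha cells (right), with a point for library 1 and each block. In both cell types Fosb lies above the line of equal level in 4 of 4 sources and Fos and Ier2 below it; Ier3 and Atf3, which are sparse, scatter.

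Related genes were read from lists that leave out the 10 members. Of 45 other early response genes, 5 were higher in alpha, 2 in delta and 3 in PP cells than in beta cells, where 2.56%, 2.75% and 1.06% of all genes were, and 11, 12 and 14 had an unadjusted p under 0.05 in limma. Those called included Klf4 (log2 difference 3.18 in alpha and 2.92 in PP cells, limma adjusted p = 0.0153 and 0.0202), Egr3 (3.32 in delta and 2.70 in alpha cells, 0.0076 and 0.0217), Egr4 (3.05 in alpha cells, 0.0347) and Cyr61 (2.29 in delta cells, 0.0104). Klf2 (2.43, limma adjusted p = 0.0496) and Zfp36 (1.60, 0.0178) were higher in PP cells. The list's median was 0.43 in alpha, 0.20 in delta and 0.23 in PP cells, beside -0.02, -0.01 and -0.18 for all genes. In endothelial, myeloid and fibroblast cells 23, 23 and 21 of the 45 were higher and 3, 4 and 2 lower than in endocrine cells, where 19.9%, 14.6% and 15.7% of all genes were higher and 25.3%, 39.6% and 24.1% lower, with medians of 1.27, 1.2 and 1.03, and Zfp36l1, which degrades AU-rich mRNAs, was at 5.46, 5.46 and 6.13.

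Genes upstream of the early response formed another list. Of 18 tested (kinases of the MAPK pathways and the factors Srf, Elk and Creb), limma called 0 in the delta and alpha contrasts, with 3 and 1 at an unadjusted p under 0.05, 2 and 1 called by edgeR and 0 and 1 by DESeq2. In PP cells limma called 0 of 19, with 1 at an unadjusted p under 0.05 and 1 called by each of edgeR and DESeq2. In endothelial cells 6 of 18 were higher, where 19.9% of all genes were, led by Elk3 (3.81, limma adjusted p = 6.4e-05), an ETS factor. Among 12 partners that dimerize with Fos, Jun or Atf3, Ddit3, the stress factor CHOP, was lower in PP than in beta cells (-2.28, limma adjusted p = 0.0079), and Jdp2 was higher in endothelial cells (2.57) and fibroblasts (3.05). Batf3 and Batf were higher in myeloid cells (3.09 and 2.45). Of the 12 partners, 3, 5 and 3 were higher and 2, 1 and 1 lower in endothelial, myeloid and fibroblast cells. Of all genes, 19.9%, 14.6% and 15.7% were higher there and 25.3%, 39.6% and 24.1% lower. Of 12 heat shock genes, another response to dissociation, limma called only Hspb1 higher in delta (3.95, adjusted p = 0.0145) and PP cells (3.10, 0.0256), where 2.75% and 1.06% of all genes were higher. It called 0 in alpha cells, where 3 had an unadjusted p under 0.05, edgeR called 0 and DESeq2 1. Hspb1 was also higher in endothelial cells (4.73) and fibroblasts (3.89) and lower in myeloid cells (-2.41). In endothelial, myeloid and fibroblast cells 5, 2 and 2 of the 12 were higher and 4, 3 and 1 lower, Hsph1 among the lower in each (-2.17, -1.49 and -1.92).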

How the data were processed

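Library 1 was deposited as raw UMI counts made with Cell Ranger 3.2.0, and the joint table of replicates 2 and 3 as natural log values, ln(1 + UMIs per 10000), that the authors made with Cell Ranger 5.0.0 and Seurat 4.0.0, per the submitters' processing notes and the values; both notes name build mm10. After the log was undone, 100% of the non-zero joint values were a whole number of times the lowest in the same cell (tolerance 0.001), and UMIs were recovered on that basis. Cells with 500 or more genes, 1000 or more UMIs and at most 20% mitochondrial UMIs were kept. The mitochondrial limit removed 236 barcodes of library 1 and 0 of the joint table, where 0 were over it. Scrublet removed 6 barcodes of library 1 and 217, 54 and 106 of the blocks, at a rate of 0.8% per 1000 barcodes; its automatic limits, which marked 9 and 3, 33 and 0, were not used. Cells were clustered with Leiden at resolution 1 (scanpy 1.11.5). Clusters in which over 50% of cells passed a hormone limit were not used as non-endocrine classes, a rule set after the clusters were seen.

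Class levels were compared with limma 3.58.1 on log2(level + 0.05), with the table as a block, in classes of 20 or more cells in both tables (6 classes, 12 columns, 5 residual degrees of freedom). Genes needed a level of 0.1 in 2 columns, and p-values were adjusted by Benjamini-Hochberg over all genes tested. The method was run on simulated counts in which class differences were equal in both libraries. That run cannot show how the method behaves where they differ, as in delta cells. edgeR 4.0.16 and DESeq2 1.42.0 on summed UMIs, other scalings, filters, class definitions and left-out blocks were the alternatives. All 10 members are named, with up to 3 called genes of each list by size of difference and the 8 genes most like the members. The members and lists were chosen with earlier results of these data known.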

Additional observations from a re-analysis of the deposited data

How the results depend on the processing

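Each class holds 2 libraries and some hold few cells (delta 25, endothelial 26, PP 18 in library 1), which limits what the tests can show. Of the 10 members, the number called in the delta, alpha and PP contrasts was 3, 5 and 5. It became 1, 1 and 3 with a pseudocount of 0.01, and 0, 1 and 2 in limma with no filter on low values, where 8, 8 and 7 had an unadjusted p under 0.05 and edgeR called 2, 6 and 7. It was 1 and 3 in the delta and alpha contrasts both with a pseudocount of 0.5 and with columns centred on their median, and 9 and 8 per 10000 of all UMIs, whose denominator includes the hormones. DESeq2 called 7 in delta and 8 in PP cells, the ratio of summed UMIs 5 in delta cells, the limit of 3000 UMIs 5 in delta cells, and Leiden resolution 0.5 gave 3 in PP cells. Without block 1 the number was 1, 2 and 3. In the non-endocrine contrasts, with 4, 5 and 4 called, only scaling to all UMIs (7 in endothelial cells and 7 in fibroblasts) and DESeq2 (8 in myeloid cells) moved it by over 1.5 times. The cause was not tested.

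Ier3, which is near 0 in endocrine cells, changed sign: its delta difference was -0.21 without replicate 1, and its alpha difference was 0.51 per 10000 of all UMIs, 0.083 with at most 10% mitochondrial UMIs, 0.077 without block 1 and 0.13 without replicates 2 and 3. No other called or endocrine difference of a member changed sign. Of the 17 uncalled differences of non-endocrine classes, 13 did in at least 1 alternative.

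Scaling to all UMIs moved the median log2 difference of all genes to 0.77 in delta, 0.54 in alpha, 0.24 in PP, 0.38 in endothelial and 0.32 in fibroblast cells and -0.02 in myeloid cells, and the share of called genes that were higher to 97.5%, 92.3%, 85.5%, 70.6%, 71.9% and 49.8%, from 55.1%, 44.9%, 31.8%, 43.9%, 39.4% and 26.9%. Centred columns gave 54.9% in PP, 48.6% in myeloid and 49.3% in fibroblast cells; edgeR gave 47.9% and 53.5% in the last pair; DESeq2 gave 57.5%, 52.6% and 57.7% in these 3. Genes called numbered 588 in delta, 671 in alpha and 406 in PP cells, against 1144, 2067 and 1406 in edgeR, 1091, 1791 and 1242 in DESeq2, 3453 and 1350 in delta and alpha cells per 10000 of all UMIs, 371 and 237 in delta and PP cells with a pseudocount of 0.01, 683 in PP cells with 0.5, and 761 in PP cells with at least 3000 UMIs. The delta contrast could not be fitted at 10% mitochondrial UMIs, nor the fibroblast contrast at Leiden resolution 0.5. The classes compared come from the same libraries, which the fit holds as a block, so classes were paired within libraries. The samples form 1 group, so no comparison between groups of samples, paired or not, was possible.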

Other observations

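Barcodes of library 1 left out for over 20% mitochondrial UMIs also had more Fosb and less Fos than the cells kept, in alpha cells. The 52 such barcodes that passed the glucagon limit alone had Fosb at 22.8 and Fos at 14.7 UMIs per 10000, against 15.1 and 32.7 in the 104 alpha cells kept, with Junb at 3.58 against 12.9. Their median non-hormone depth was 2796 UMIs against 9175.

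Clusters left unnamed in the joint table carried other mixtures of the same genes. The 109 cells led by Fn1 and Ccl9 had Junb at 18.6, 11.2 and 23.5 and Ier3 at 5.10, 2.14 and 6.90 in blocks 1 to 3, with Egr1 at 2.02, 1.25 and 2.67. The 23 cells led by S100a9 and S100a8 had an Ier3 UMI in 70.0% of 20 cells thinned to 1000 UMIs, with an exact 95% binomial interval of 45.7 to 88.1%.

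Cells past the limits of several hormones numbered 98 in library 1 and 1079 in the joint table, most often with Sst and Ppy (42 and 362). They had Fos at 41.2 in library 1 and 24.6, 22.5 and 25.1 in the blocks.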
